A study of Mus musculus with 100 samples.

Results

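The injured knee joints of STR/ort and MRL/MpJ mice were compared at 2-weeks after injury. The members were the 10 RNA-seq libraries of these joints, 5 from STR/ort and 5 from MRL/MpJ, taken by their strain, joint and time labels from the 100 libraries of the series, and every gene of the count table was tested. The right knee of 10-week-old mice was loaded in compression at 10 to 12 N, which ruptures the anterior cruciate ligament, and the left knee was kept as the contralateral joint. The labels call STR/ort highly susceptible, C57BL/6 moderately susceptible and MRL/MpJ not susceptible to post-traumatic osteoarthritis (PTOA). All 3 are inbred strains that carry no transgene in the labels. Per the study's methods, mice were anesthetized with isoflurane for the loading and received the opioid buprenorphine right after it, and no other agent is named. The joints at 2-weeks, 5 injured and 5 contralateral for each strain, form experimental batch 2, whereas the joints collected before injury, at 1-day and at 1-week form batch 1. Within a strain at 2-weeks, an injured and a contralateral library of the same number came from the same mouse. The 5 libraries of a group came from separate mice.

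A ruptured ligament leaves the knee unstable. Synovium, ligament ends and joint capsule respond with a wound program in which fibroblasts deposit collagen and fibronectin, secrete proteases that remodel the matrix, and release chemokines that recruit monocytes. Cartilage and bone are altered more slowly, and osteophytes form through a cartilage template. STR/ort mice are known for osteoarthritis that arises without injury, and MRL/MpJ mice for closing ear wounds with little scar.

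The whole joint was sampled with marrow, bone, cartilage, synovium and muscle, so fewer cells of a type and less RNA per cell cannot be told apart in any value given here. The study describes small traces of soft tissue, but muscle gave a sizeable share of the RNA. The 17 fast muscle genes summed to 88320 to 125300 CPM in STR/ort and 79890 to 171700 CPM in MRL/MpJ injured joints. Cartilage was present in every library: Col2a1, the main collagen of cartilage, was at 714 CPM (counts scaled to a library size of 1e6) or more in each of the 10. Skin was nearly absent, with 4 of 12 listed genes measured and a summed level of 3.65 to 6.09 CPM per library. The libraries held 10658864 to 14998354 counts in genes. One library stood apart: MRL/MpJ injured replicate 4 had the lowest correlation with its own group (0.9838, against 0.9905 or more for the other 4), and its summed level of 17 fast muscle genes was 171700 CPM against 79890 to 97360 CPM in the other MRL/MpJ injured joints. In that library the summed levels of the erythroid and cell cycle genes were also the lowest of the MRL/MpJ group. MRL/MpJ injured replicate 3 was the lowest for many wound genes, so several counts are also given without one of these libraries.

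Injured STR/ort and MRL/MpJ joints differed in 3263 of 17310 genes, 18.9% of those tested, at an adjusted p below 0.05 and a fold change above 1.5. Of these, 1897 genes (11%) were higher and 1366 (7.89%) were lower in STR/ort. The split depended on the scaling, at 2282 and 1115 when scaled to the housekeeping genes and 1743 and 993 with 2 RUVg factors. At an unadjusted p below 0.05 there were 8511 genes. The 10 libraries fell into the 2 strains along the first principal component, which held 55.6% of the variance, while the second, with 13.2%, mainly separated MRL/MpJ replicate 4. The median called gene differed by 0.977 on the log2 scale, 1572 differed by more than 1 and 379 by more than 2. In 2404 of the 3263 (73.7%) the 5 STR/ort values lay wholly above or below the 5 MRL/MpJ values. This separation was found in 24.3% of all genes, 14.4% with STR/ort above and 9.91% with STR/ort below. Leaving out any 1 of the 10 libraries gave between 3099 and 3518 genes.

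Collagens were higher throughout in the injured STR/ort joints. All 20 measured fibrillar and fibril-associated collagens and their processing enzymes passed the test, with a median log2 fold change of 1.43 against 0.0167 over all genes. In each of the 20, every STR/ort value exceeded every MRL/MpJ value. The summed level of the list was 46030, 43650, 35540, 39450 and 48580 CPM in the 5 STR/ort joints and 21230, 21790, 15890, 17620 and 21810 CPM in the 5 MRL/MpJ joints. The contralateral joints of the same mice held 20220 to 24730 CPM in STR/ort and 13510 to 16730 CPM in MRL/MpJ, so the injured MRL/MpJ joints overlapped the range of the uninjured STR/ort joints.

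**Figure D1:**
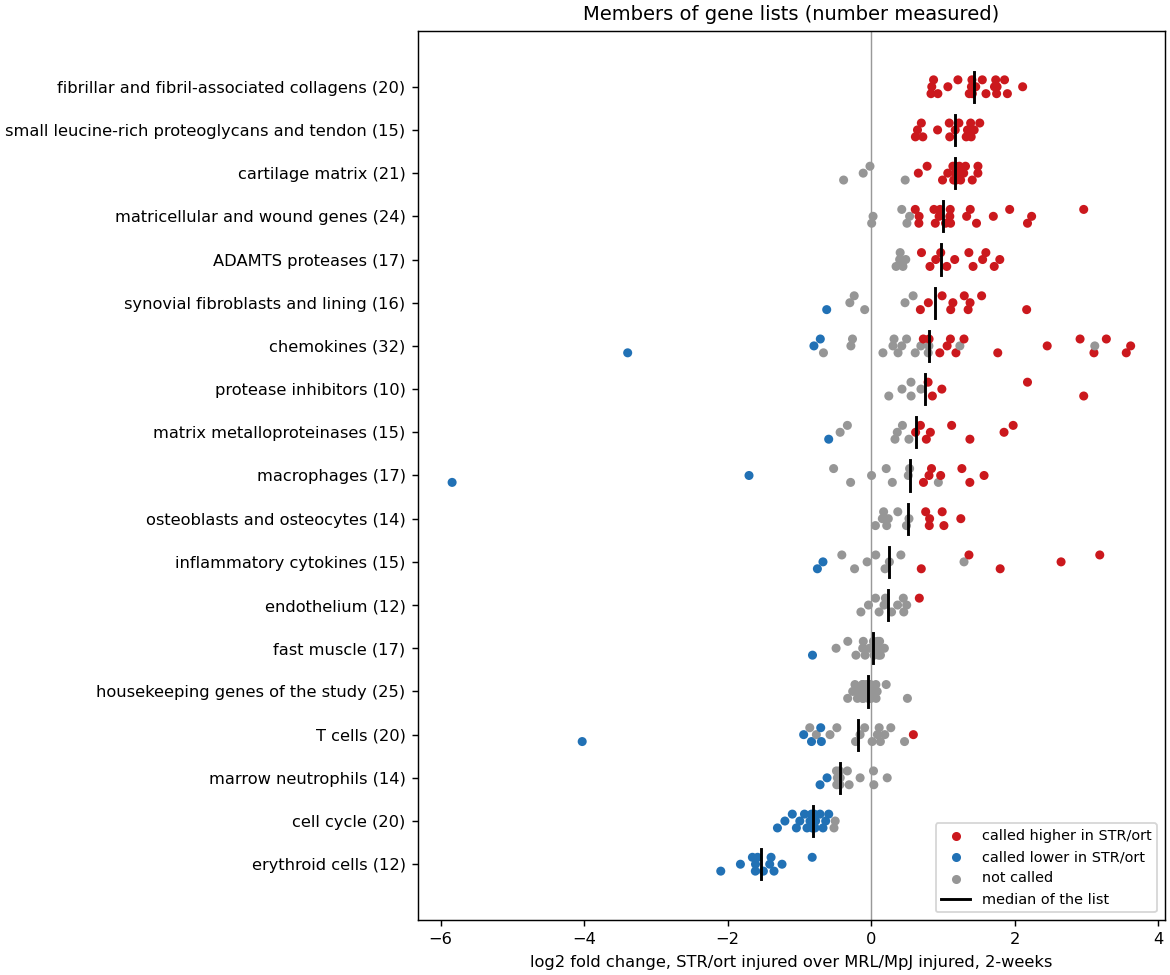
Log2 fold change of each measured member of 19 gene lists between injured STR/ort and injured MRL/MpJ joints at 2-weeks (x axis, 5 libraries per strain), with lists as rows ordered by their median. Red and blue points passed the test as higher or lower in STR/ort, grey points did not, and the black bar is the list median, which runs from 1.43 for the collagens to -1.54 for the erythroid genes.

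Col3a1, the collagen of early granulation tissue, was at 9868, 9653, 6868, 8382 and 10300 CPM in STR/ort and at 2982, 3348, 1352, 4088 and 3181 CPM in MRL/MpJ. The values did not overlap, replicate 3 was the lowest library of both strains, and the difference was 3.03-fold (log2 1.599 ± 0.19 (SE), adjusted p = 3.42e-08). Col1a1 and Col1a2, which form the type I collagen of bone, ligament and scar, differed less. Col1a1 was at 15540, 14380, 12630, 12910 and 16650 CPM against 8988, 8964, 7320, 6016 and 9104 CPM, a 1.8-fold difference (adjusted p = 4.98e-07). Col1a2 was 1.9-fold higher (adjusted p = 5.3e-08). Col12a1, which decorates the surface of collagen fibrils, was at 632 ± 80.8 CPM in STR/ort and 188 ± 9.73 CPM in MRL/MpJ (SD, n = 5), with no overlap. Serpinh1, the collagen chaperone of the endoplasmic reticulum, was 1.46 ± 0.09 higher on the log2 scale (adjusted p = 4.84e-14).

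Col8a1, a short-chain collagen made by activated mesenchymal cells (chr16:57624256-57754737), was at 222, 200, 157, 227 and 213 CPM in injured STR/ort joints. In injured MRL/MpJ joints it was at 64.5, 51.7, 47.3, 56.7 and 62.0 CPM. The lowest STR/ort joint thus held more than the highest MRL/MpJ joint, and the difference was 3.62-fold (log2 1.86 ± 0.12, adjusted p = 1.33e-13). Enzymes that cross-link the fibrils were higher too. Lox, a lysyl oxidase, was at 246 ± 48.3 against 93.0 ± 12.9 CPM (log2 1.41 ± 0.13, adjusted p = 1.94e-10). Plod2, which hydroxylates the lysines used in such cross-links, was at 212 ± 37.2 against 92.0 ± 11.9 CPM (log2 1.21 ± 0.14, adjusted p = 1.29e-08).

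Of 24 matricellular and wound genes, 19 were higher in injured STR/ort joints and none was lower, with a median log2 difference of 0.998. The STR/ort values lay wholly above the MRL/MpJ values in 19 of the 24, against 14.4% of all genes. The smooth muscle actin gene Acta2 was higher in STR/ort but overlapped, at 91.0 to 136 CPM against 56.0 to 102 CPM, where MRL/MpJ replicate 4 was the highest of its group. Postn, a matricellular protein of ligament and scar, was at 1178, 1160, 849, 987 and 1038 CPM in STR/ort and at 286, 281, 221, 305 and 282 CPM in MRL/MpJ. The groups were far apart, 3.81-fold, with a log2 difference of 1.93 ± 0.10 (adjusted p = 9.05e-16). Fn1, the fibronectin of the provisional wound matrix, was at 6240, 6158, 4841, 6309 and 6592 CPM against 2542, 2296, 1427, 2272 and 2427 CPM, which is 2.76-fold (adjusted p = 8.86e-09). Cthrc1, secreted by activated fibroblasts, was at 131, 118, 90.4, 102 and 107 CPM against 27.7, 23, 15.3, 25.04 and 25.7 CPM, which is 4.71-fold (log2 2.23 ± 0.14, adjusted p = 2.46e-13).

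Not every wound gene differed. Tgfb1, the TGF-beta ligand of platelets and macrophages, was at 134 ± 8.68 CPM in STR/ort and 134 ± 20.1 CPM in MRL/MpJ (log2 0.01 ± 0.08, adjusted p = 0.958). The matricellular gene Thbs1 was at 431 ± 30.8 against 426 ± 54.9 CPM (log2 0.03 ± 0.09, adjusted p = 0.837). Other ligands of the TGF-beta family were higher in STR/ort: Tgfb2, Tgfb3 and Inhba, which encodes the subunit of activin A.

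Tnfaip6 (chr2:52038113-52056681) had one of the widest differences among genes expressed in both strains. It encodes TSG-6, a hyaluronan-binding protein that inflamed synovium and cartilage secrete. It was at 51.1, 51.9, 36.3, 46.2 and 90.5 CPM in the STR/ort joints and at 4.91, 7.51, 1.29, 5.63 and 6.11 CPM in the MRL/MpJ joints. The highest MRL/MpJ joint stayed well below the lowest STR/ort joint, and the difference was 10.9-fold (log2 3.44 ± 0.24, adjusted p = 1.34e-12). The C57BL/6 injured joints were at 6.94 ± 1.79 CPM, close to the MRL/MpJ joints.

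**Figure D2:**
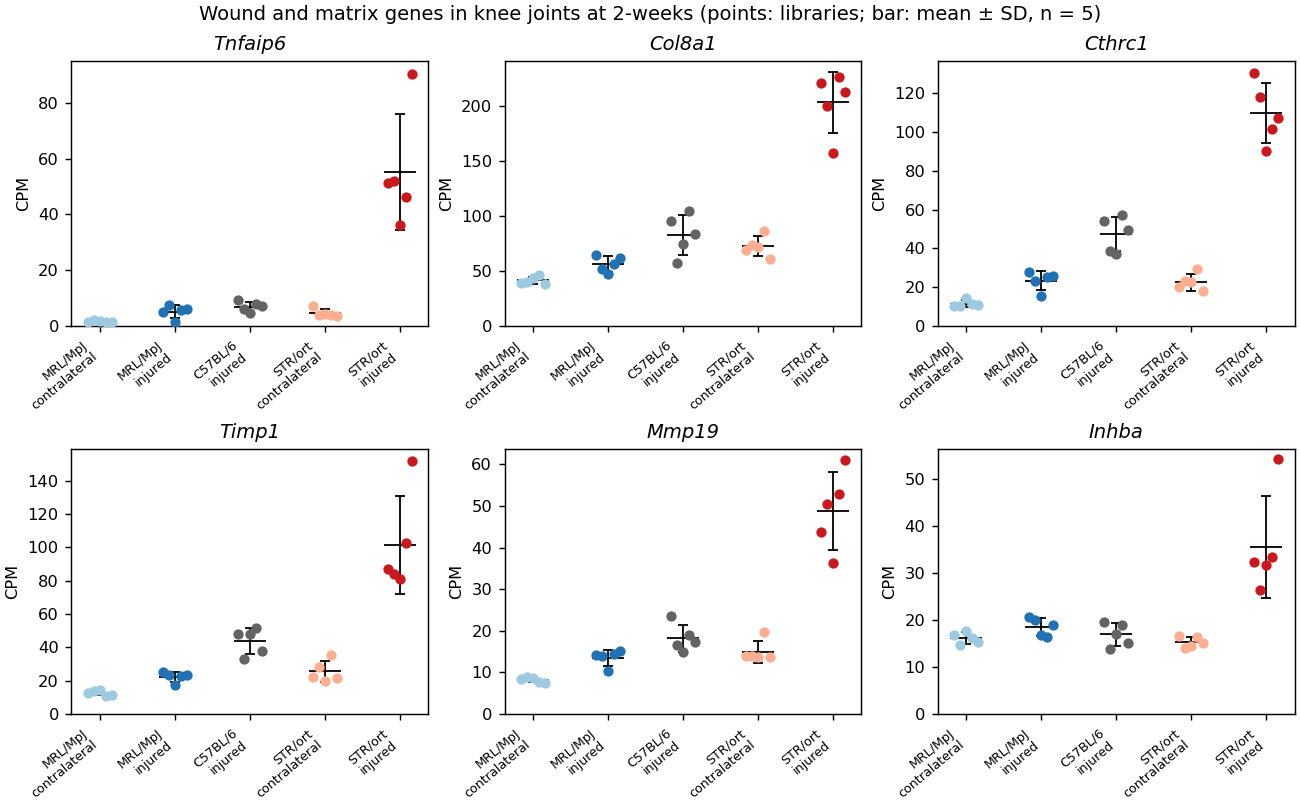
CPM (y axis) of 6 wound and matrix genes in contralateral and injured joints of MRL/MpJ and STR/ort and in injured joints of C57BL/6 at 2-weeks, with 1 point per library and bars for the mean ± SD (n = 5 per group). The injured STR/ort joints lie above every other group for all 6 genes, for Tnfaip6 between 36.3 and 90.5 CPM against at most 7.51 CPM in injured MRL/MpJ joints.

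The contralateral joints show which strain differences were also present on the side that was not loaded. In these joints 2393 genes (13.8%) differed between STR/ort and MRL/MpJ, 1379 higher (7.97%) and 1014 lower (5.86%). Of the 1897 genes higher in injured STR/ort joints, 1066 (56.2%, or 77.3% of the contralateral genes) were also higher in contralateral joints, and of the 1366 lower genes 838 (61.3%, or 82.6%). None was called in opposite directions. These joints came from the same mice as the injured ones, so the 2 comparisons are not independent.

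The strain difference itself differed between injured and contralateral joints in 78 genes, 0.451% of those tested, in 75 of them (0.433%) toward a higher level in injured STR/ort joints. The set was small and depended on single libraries, from 21 genes without MRL/MpJ contralateral replicate 1 to 150 without MRL/MpJ injured replicate 4. It was 43 without MRL/MpJ injured replicate 3 and 122 without STR/ort injured replicate 3. Of the 75, 70 were also among the 1897 genes higher in the injured joints. Of the 26 interactions of named genes, 14 were no longer called without MRL/MpJ contralateral replicate 1, with adjusted p between 0.0506 and 0.134, the latter for Tnfaip6. Of the 30 alternative settings and omissions of 1 library, Tnfaip6 lost the call in 20, Hif1a in 12, Col5a2 and Mmp14 in 10, Sfrp1 in 9, Socs3 in 8 and Plod2 in 6. Collagen and wound members were Col8a1, Col5a2, Lox, Plod2, Thbs2, Timp1, Inhba and Cthrc1. With the mouse as a block, Col5a2 (adjusted p = 0.0659) and Cbln1 (adjusted p = 0.0766) were not called.

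Kcnj15, an inward rectifier potassium channel (chr16:95257558-95300260), was at 31.8, 42.5, 23.9, 33.0 and 43.6 CPM in injured STR/ort joints and at 9.32, 10.9, 6.70, 8.75 and 9.52 CPM in injured MRL/MpJ joints. Its contralateral joints did not differ by the test, with 7.45 ± 0.935 CPM in STR/ort and 6.46 ± 0.979 CPM in MRL/MpJ (adjusted p = 0.505). The difference between the 2 strain differences was 1.75 ± 0.29 on the log2 scale (adjusted p = 0.00306). Inhba showed the same layout at a smaller size: it was at 32.2, 26.3, 31.6, 33.3 and 54.2 CPM in injured STR/ort joints against 20.6, 20.1, 16.8, 16.3 and 18.9 CPM in injured MRL/MpJ joints. In contralateral joints it was at 15.3 ± 1.14 and 16.1 ± 1.25 CPM, and the interaction was 1.03 ± 0.18 (adjusted p = 0.00502). Chl1, a neural cell adhesion molecule, was at 10.8 to 35.3 CPM in injured STR/ort and 3.57 to 5.71 CPM in injured MRL/MpJ joints, with an interaction of 2.13 ± 0.42 (adjusted p = 0.0156).

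Smoc1, a calcium-binding matrix protein, had an interaction of 1.19 ± 0.20 (adjusted p = 0.00359). Enpp1, which makes the mineralization inhibitor pyrophosphate, differed by 1.96 ± 0.13 in injured and 0.85 ± 0.14 in contralateral joints, with an interaction of 1.11 ± 0.19 (adjusted p = 0.00501). Spsb1 and Pmepa1, both negative regulators within TGF-beta signaling, had interactions of 0.96 ± 0.17 and 0.84 ± 0.15 (adjusted p = 0.00501 for both). Socs3, the feedback inhibitor of cytokine receptors, was at 26.9 ± 5.45 against 12.7 ± 2.93 CPM in injured joints and at 12.3 ± 1.51 against 11.3 ± 1.38 CPM in contralateral joints (interaction 0.97 ± 0.21, adjusted p = 0.0256). Hif1a, the hypoxia-inducible transcription factor, had an interaction of 0.66 ± 0.15 (adjusted p = 0.0314).

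In 3 genes (0.0173%) the interaction was negative, that is, the strain difference lay further toward MRL/MpJ in injured than in contralateral joints. Serpina1b, which encodes an alpha-1 antitrypsin, was at 2.59 ± 0.185 CPM in injured STR/ort and 6.64 ± 2.31 CPM in injured MRL/MpJ joints, while its contralateral levels were 3.40 ± 0.589 and 2.99 ± 0.333 CPM (interaction -1.52 ± 0.32, adjusted p = 0.0181). It belongs to a family of near-identical genes whose reads are hard to assign. Htra4, a serine protease, was at 24.9 ± 2.38 against 29.5 ± 2.86 CPM in injured joints, which did not pass the test (log2 -0.24, adjusted p = 0.0811), but at 32.4 ± 3.89 against 16.8 ± 2.21 CPM in contralateral joints. Its interaction was -1.19 ± 0.16 (adjusted p = 0.000394). The third was Cbln1, a secreted synaptic organizer, at 1.43 ± 0.625 against 1.90 ± 0.453 CPM in injured and 3.01 ± 0.425 against 1.54 ± 0.321 CPM in contralateral joints (interaction -1.36 ± 0.33, adjusted p = 0.0468), a call lost under 22 of the 30 alternatives (adjusted p up to 0.114). Among the 75, Spon1, a matrix protein of the F-spondin family, had opposite signs on the 2 sides: its strain difference was 0.44 ± 0.10 in injured and -0.56 ± 0.11 in contralateral joints, both under the 1.5-fold limit, with an interaction of 1.01 ± 0.15 (adjusted p = 0.00246).

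**Figure D3:**
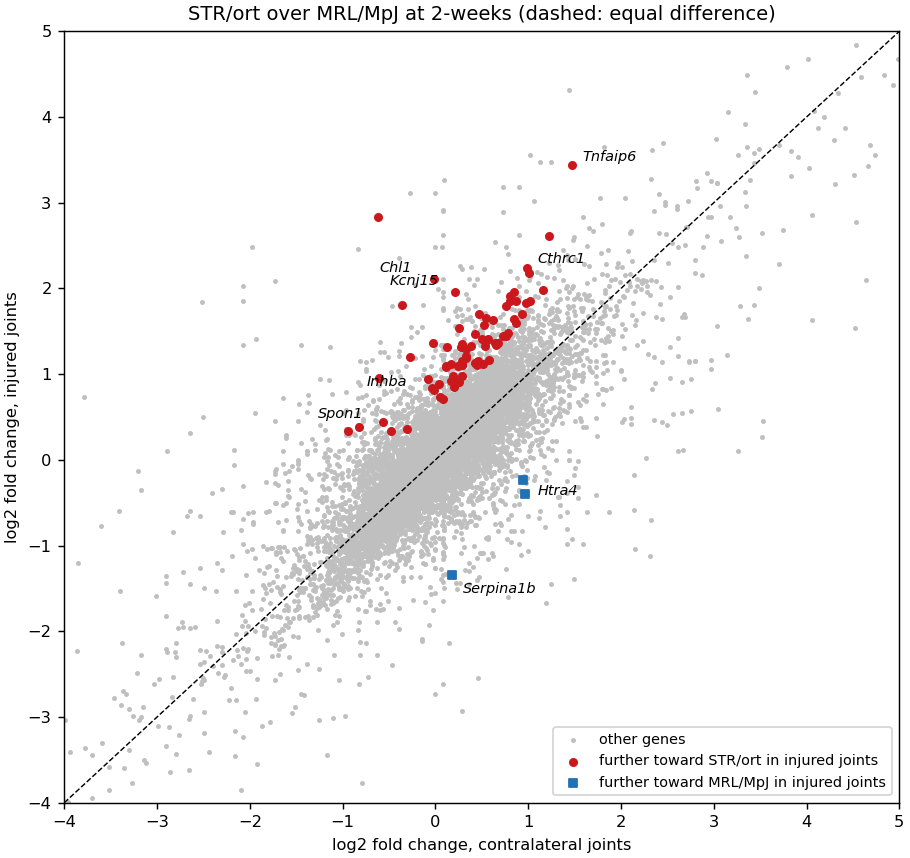
Log2 fold change of STR/ort over MRL/MpJ in contralateral joints (x axis) and in injured joints (y axis) at 2-weeks, 1 point per gene, with genes beyond the axes not drawn and a dashed line for equal difference. The 75 red genes had a difference called further toward STR/ort in injured joints, Tnfaip6 among them at 3.44 against 1.47, and the 3 blue squares one called further toward MRL/MpJ.

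Matrix proteases cleave the collagens and proteoglycans of the joint. Of 15 matrix metalloproteinases 8 were higher and 1, Mmp9, was lower (median log2 difference 0.619), with 6 higher without MRL/MpJ replicate 3 and 0 lower when scaled to the housekeeping genes or with 2 RUVg factors, with limma voom and without MRL/MpJ replicate 1, 2 or 5 or STR/ort replicate 2, 3 or 5. The summed level of the list overlapped, at 1967 to 2618 CPM in STR/ort and 1494 to 2247 CPM in MRL/MpJ. Of 17 ADAMTS proteases 12 were higher and none lower (median 0.969). Of their inhibitors 5 of 10 were higher and none lower (median 0.743), and 8 when scaled to the housekeeping genes. Mmp19, a metalloproteinase of wound edges, was at 43.6, 50.4, 36.3, 52.9 and 61.0 CPM against 14.1, 14.0, 10.2, 14.5 and 15.1 CPM, which is 3.61-fold with no overlap (adjusted p = 1.56e-12). Mmp3, stromelysin, which cleaves aggrecan and activates other metalloproteinases, was at 44.2, 41.2, 36.2, 66.7 and 107 CPM against 16.1, 16.4, 4.47, 22.1 and 15.8 CPM, which is 3.94-fold (log2 1.98 ± 0.35, adjusted p = 2.19e-05). Its groups did not overlap either, and the spread within STR/ort was wide. Mmp14, which activates Mmp2 at the cell surface, was at 277 ± 29.6 against 128 ± 19.3 CPM, and Mmp2, a gelatinase, was at 560 ± 85.0 against 217 ± 48.6 CPM.

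Mmp13, the collagenase of cartilage, did not pass the test. It was at 512, 569, 391, 640 and 738 CPM in STR/ort and at 525, 537, 367, 253 and 545 CPM in MRL/MpJ, and the 2 ranges overlapped (log2 0.36 ± 0.16, adjusted p = 0.0731). Mmp9, made by neutrophils and osteoclasts, was at 500 ± 49.5 CPM in STR/ort and 759 ± 148 CPM in MRL/MpJ (log2 -0.59 ± 0.10, adjusted p = 8.68e-06), close to the fold limit. Among the aggrecanases, Adamts4 was at 14.8 ± 4.63 against 5.06 ± 0.505 CPM (log2 1.55 ± 0.17, adjusted p = 1.01e-08), and Adamts5, at 68.0 ± 8.73 against 51.9 ± 5.43 CPM, stayed under the fold limit. Adamts7, which cleaves COMP, was at 14.4 ± 1.28 against 4.36 ± 0.783 CPM (adjusted p = 1.62e-12). Adamts3, a procollagen protease, was the only member of its list with a called interaction (0.83 ± 0.17, adjusted p = 0.0181). Timp1, the inhibitor of most metalloproteinases, was at 86.9, 84.0, 80.9, 103 and 152 CPM against 25.3, 23.3, 17.4, 22.8 and 23.5 CPM, which is 4.52-fold (adjusted p = 1.57e-12), with an interaction of 1.17 ± 0.23 (adjusted p = 0.0156).

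The promoter of Mmp3, a gene long known as a target of AP-1, is shown from RefSeq on GRCm38.p6 with its match to TGANTCA, read on both strands, in capitals; the window runs from 250 bases before to 50 bases after the start of the gene, 5′ to 3′. Of 14 promoters of 12 metalloproteinase genes 4 (28.6%) held that motif, as did 2565 of all 32851 promoters (7.81%), and 1 of 13 collagen promoters (7.69%). A match describes the letters of this window only.
Mmp3 (chr9:7445572-7445871, plus strand): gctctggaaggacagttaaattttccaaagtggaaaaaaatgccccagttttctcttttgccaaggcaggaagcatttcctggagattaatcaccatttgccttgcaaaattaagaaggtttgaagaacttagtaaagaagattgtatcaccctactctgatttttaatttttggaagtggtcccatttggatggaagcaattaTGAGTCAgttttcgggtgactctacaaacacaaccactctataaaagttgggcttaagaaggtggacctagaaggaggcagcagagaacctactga

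Cartilage, tendon and synovial lining genes were higher as well. Of 21 cartilage matrix genes 17 were higher and none lower (median log2 difference 1.17). In contralateral joints 16 of the 21 were higher and 1 lower, and no interaction was called. Col2a1 was at 3744, 3092, 2664, 3353 and 3934 CPM against 1374, 1582, 1165, 714 and 1528 CPM, which is 2.65-fold with no overlap (adjusted p = 7.25e-08). Acan, the large proteoglycan that gives cartilage its stiffness, was at 500, 441, 326, 423 and 477 CPM against 162, 187, 126, 124 and 180 CPM, which is 2.8-fold (adjusted p = 3.34e-09). Sox9, the transcription factor of chondrocytes, was at 33.0 ± 5.67 against 13.6 ± 2.29 CPM.

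All 15 small leucine-rich proteoglycans and tendon genes were higher (median 1.17), 13 of them without MRL/MpJ replicate 3. Bgn, which regulates fibril diameter, was at 1075 ± 114 against 400 ± 79.0 CPM, and Fmod, which does the same in tendon, was at 669 ± 83.3 against 236 ± 60.3 CPM. Scx, the transcription factor of tendon progenitors, was at 12.5, 12.4, 11.3, 11.3 and 11.8 CPM against 3.98, 3.85, 4.90, 6.70 and 4.28 CPM, and was the member with a called interaction (0.94 ± 0.22, adjusted p = 0.0356), which was lost under 17 of the 30 alternatives (adjusted p up to 0.0839).

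Of 16 synovial fibroblast and lining genes 10 were higher and 1 was lower (median 0.892), 9 of them without MRL/MpJ replicate 3 and 0 lower when scaled to the housekeeping genes or without MRL/MpJ replicate 1, 2 or 5 or STR/ort replicate 1. Prg4, the lubricin that coats cartilage, was at 2299, 2335, 1936, 2410 and 2632 CPM against 1404, 1057, 664, 970 and 1216 CPM, which is 2.2-fold (adjusted p = 3e-06). Has1, a hyaluronan synthase, was at 26.9, 21.4, 19.6, 19.5 and 29.2 CPM against 5.90, 6.23, 2.32, 5.10 and 6.43 CPM (log2 2.17 ± 0.21, adjusted p = 1.13e-09). Sfrp1, a secreted Wnt inhibitor, was at 35.6 ± 8.27 against 14.0 ± 2.82 CPM, with an interaction of 1.06 ± 0.23 (adjusted p = 0.0256). The lower member was Vcam1, an adhesion molecule that synovial and marrow stroma express, at 157 ± 21.9 against 242 ± 50.6 CPM.

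In bone, 6 of 14 osteoblast and osteocyte genes were higher and none lower (median 0.509). Of 12 osteoclast genes 2 were higher and 1, again Mmp9, lower (median 0.228). Over all genes 11% were higher and 7.89% lower, so the osteoclast counts lay near the share over all genes. Alpl, the alkaline phosphatase of mineralizing cells, was at 137 ± 15.97 against 68.4 ± 11.4 CPM, and Sp7, the transcription factor of osteoblasts, at 38.2 ± 6.95 against 19.4 ± 5.09 CPM. Sost, the Wnt antagonist of osteocytes, was at 38.5 ± 4.32 against 22.9 ± 3.14 CPM (log2 0.76 ± 0.15, adjusted p = 0.000109). Tnfsf11, which encodes RANKL, the signal that makes osteoclasts, was at 5.58 ± 1.27 against 3.14 ± 1.12 CPM. Ctsk, the collagen-degrading protease of osteoclasts, was at 356 ± 69.5 against 310 ± 73.3 CPM and did not pass the test.

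Of 15 inflammatory cytokines 5 were higher in injured STR/ort joints and 2 were lower, with a median of 0.253, and 3 were higher without STR/ort replicate 5. Ptgs2, the inducible cyclooxygenase, was at 8.57, 8.25, 6.25, 5.76 and 11.4 CPM against 1.14, 1.28, 0.687, 1.67 and 1.59 CPM, which is 6.26-fold (log2 2.65 ± 0.25, adjusted p = 7.26e-10). Il11, a cytokine of the IL-6 family, was at 2.41, 2.54, 3.12, 3.42 and 4.14 CPM against 0.427, 0.275, 0.0859, 0.228 and 0.635 CPM, which is 9.09-fold (adjusted p = 3.3e-09). Neither group overlapped the other for these genes, though the MRL/MpJ values of Il11 rest on a few counts per library, so its fold is rough. Il6 itself was at 0.1602 to 2.38 CPM against 0.0761 to 0.602 CPM, only a few counts per library, and did not pass (log2 1.29 ± 0.58, adjusted p = 0.0728). It passed without MRL/MpJ replicate 3 (adjusted p = 0.0471) and without STR/ort replicate 3 or 4 (adjusted p = 0.0236 and 0.0368). Tnf and Il18 were lower, Tnf at 2.79 ± 0.777 against 4.72 ± 0.855 CPM, and Il1b did not pass (19.0 ± 3.68 against 14.3 ± 2.71 CPM), except with 2 RUVg factors (log2 0.7224, adjusted p = 0.0148).

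Of 32 chemokines 14 were higher and 3 lower (median 0.799). Ccl2, which draws monocytes through CCR2, was at 3.48, 2.90, 1.84, 2.16 and 8.73 CPM against 0.284, 0.458, 0.172, 0.533 and 0.476 CPM, which is 9.69-fold (log2 3.28 ± 0.44, adjusted p = 3.38e-07). Ccl8, another monocyte chemokine, was at 7.498, 5.18, 5.77, 7.20 and 8.47 CPM against 0.356, 0.916, 0.516, 1.37 and 0.793 CPM, which is 8.59-fold. Their neighbours Ccl7 and Ccl12 differed 12.2-fold and 11.7-fold, and in each of the 4 genes the strains did not overlap. Cxcl1, a neutrophil chemokine, was at 0.439 to 3.44 CPM against 0.0916 to 0.427 CPM, which is 5.47-fold (adjusted p = 0.000113). The MRL/MpJ values of Ccl2 and Cxcl1 rest on a few counts per library, so these folds are rough. Against this direction, Ccl19, which guides T cells and dendritic cells, was at 0.803, 1.23, 0.561, 0.630 and 1.15 CPM against 6.97, 8.06, 10.7, 12.4 and 8.33 CPM (log2 -3.39 ± 0.22, adjusted p = 3.56e-13). Near-identical copies of Ccl19 exist in mouse strains, so its reads are uncertain. Cxcl12, the marrow niche chemokine, was also lower (547 ± 74.4 against 956 ± 146 CPM).

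Of 17 macrophage genes 7 were higher and 2 lower (median 0.535). Cd14, the lipopolysaccharide co-receptor, was at 14.3 ± 2.77 against 4.83 ± 1.30 CPM, and Msr1, a scavenger receptor, at 27.9 ± 5.55 against 11.7 ± 2.12 CPM. Cd68, which all macrophages express, was at 52.1 ± 2.34 against 42.7 ± 7.24 CPM and stayed under the fold limit. Timd4, a receptor of resident macrophages, was at 3.69 ± 1.12 against 12.1 ± 2.03 CPM. Of 23 complement genes 9 were higher and 4 lower (median 0.215), but 8 and 2 with 2 RUVg factors. Among the higher ones was C4b, at 91.9 ± 10.1 against 18.8 ± 2.64 CPM, with its near-identical neighbour C4a among the lower genes.

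Several genes were close to absent in 1 strain. There were 39 genes with a log2 difference above 5. In 15 of the called genes all 5 MRL/MpJ libraries were at 0, and in 18 all 5 STR/ort libraries. Reads were aligned to the C57BL/6J genome, so deletions, copy number and sequence differences in either strain enter these values along with expression. Trim12a, a TRIM protein gene of the antiviral cluster on chromosome 7 (chr7:104299893-104315558), was at 14.6, 17.0, 16.9, 20.4 and 17.99 CPM against 0, 0.183, 0.0859, 0.228 and 0.238 CPM, which is 112-fold (log2 6.81 ± 0.27, adjusted p = 5.2e-18). Tm4sf20, a membrane protein gene (chr1:82756647-82768461), was at 14.2 ± 1.62 against 0.133 ± 0.0984 CPM, and the C57BL/6 injured joints, at 0.0859 ± 0.141 CPM, were on the MRL/MpJ side. Mamdc2, a matrix proteoglycan gene (chr19:23302609-23448497), was at 39.7, 43.8, 29.2, 33.4 and 38.7 CPM against 0.640, 1.10, 0.687, 0.381 and 0.714 CPM, which is 52.9-fold. Gdpd3, a lysophospholipase D gene, was 19.5-fold higher, at 40.8 ± 4.36 against 2.13 ± 1.05 CPM.

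In the other direction, the pseudogene H2-Ea-ps, a remnant of a class II antigen-presentation gene, was at 0 in all 5 STR/ort libraries and at 25.9 to 39.99 CPM in MRL/MpJ. Taking 3 counts over the STR/ort group as the floor, it was at least 685-fold lower. B4galnt2, a glycosyltransferase gene (chr11:95863559-95914960), was at 1.34, 1.75, 0.881, 1.80 and 1.24 CPM against 13.3, 14.8, 17.2, 21.5 and 13.3 CPM, 11.4-fold lower in STR/ort (log2 -3.51 ± 0.16, adjusted p = 6.79e-17). Msh5, a meiotic mismatch-repair gene, was 10.1-fold lower. Ubb, a polyubiquitin gene with close copies elsewhere in the genome, was at 19.8 ± 0.164 against 56.3 ± 2.90 CPM. A list of 22 genes chosen on these samples holds those that the study names as lastingly different in MRL/MpJ and 1 more that it names apart from them. Of the 22, 17 were higher and 5 lower (median 1.14), with Capg, an actin-capping protein, at 91.3 ± 8.54 against 16.1 ± 2.36 CPM.

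Several immune gene families are polymorphic between mouse strains. Their counts stand beside 11% higher and 7.89% lower over all genes. Of 28 genes of the major histocompatibility complex and antigen presentation 12 were higher and 2 lower (median 0.474), 10 and 2 without MRL/MpJ replicate 4, but 3 were higher and 6 lower with 2 RUVg factors, which remove variation shared by the housekeeping genes. H2-D1, a class I gene, was at 162, 199, 314, 378 and 326 CPM in STR/ort against 71.8, 69.5, 63.0, 52.7 and 73.9 CPM, and the STR/ort joints spread 157 to 410 CPM on the contralateral side of the same mice. Of 39 interferon-stimulated genes 8 were higher and 1 lower (median 0.327), but 4 and 14 with 2 RUVg factors, 14 and 1 without STR/ort replicate 1 and 5 and 2 without STR/ort replicate 4. Of 12 genes of the Trim5 and Trim12 cluster 4 were higher and 3 lower (median 0.234), but 4 and 1 with filterByExpr. Of 10 genes of the Ifi200 family 3 were higher and 2 lower (median 0.148), with Ifi202b at 42.2 ± 11.1 against 13.2 ± 2.69 CPM.

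Erythroid and proliferation genes were lower in STR/ort. All 12 measured erythroid genes were lower (median log2 difference -1.54), each without overlap, and 11 of the 12 were lower in contralateral joints too. The summed level of the list was 2624, 1771, 1785, 1661 and 2058 CPM in injured STR/ort joints and 6609, 5780, 5529, 3829 and 6158 CPM in injured MRL/MpJ joints. The MRL/MpJ joint at 3829 CPM was replicate 4, the library with the high fast muscle level. Slc4a1, the anion exchanger of red cells, was at 1017, 602, 591, 584 and 723 CPM against 2711, 2306, 2163, 1496 and 2474 CPM, which is 3.15-fold lower (log2 -1.66 ± 0.16, adjusted p = 6.35e-10). Alas2, the first enzyme of heme synthesis in red cell precursors, was 3.06-fold lower and Car1, their carbonic anhydrase, 4.27-fold. Klf1, the transcription factor of erythroid cells, was at 33.5 ± 5.90 against 79.6 ± 16.6 CPM.

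Of 20 cell cycle genes 18 were lower and none was higher (median -0.816), the strains did not overlap in 14 of the 20, and 8 were lower in contralateral joints. The summed level was 2237, 1754, 1832, 1946 and 2078 CPM against 4374, 4118, 3914, 2592 and 4231 CPM, with replicate 4 again the lowest MRL/MpJ library; without it 20 of 20 were lower, and with 2 RUVg factors 8 were. Mki67, a marker of cycling cells, was at 604, 486, 487, 473 and 544 CPM against 1451, 1404, 1306, 851 and 1436 CPM, which is 2.47-fold lower (log2 -1.31 ± 0.12, adjusted p = 1.49e-10). Cenpf, a kinetochore protein, was 2.3-fold lower. Birc5, which encodes survivin, was at 47.5 ± 5.82 against 98.4 ± 16.7 CPM, and Aurka, a mitotic kinase, at 27.0 ± 3.24 against 49.0 ± 4.35 CPM.

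**Figure D4:**
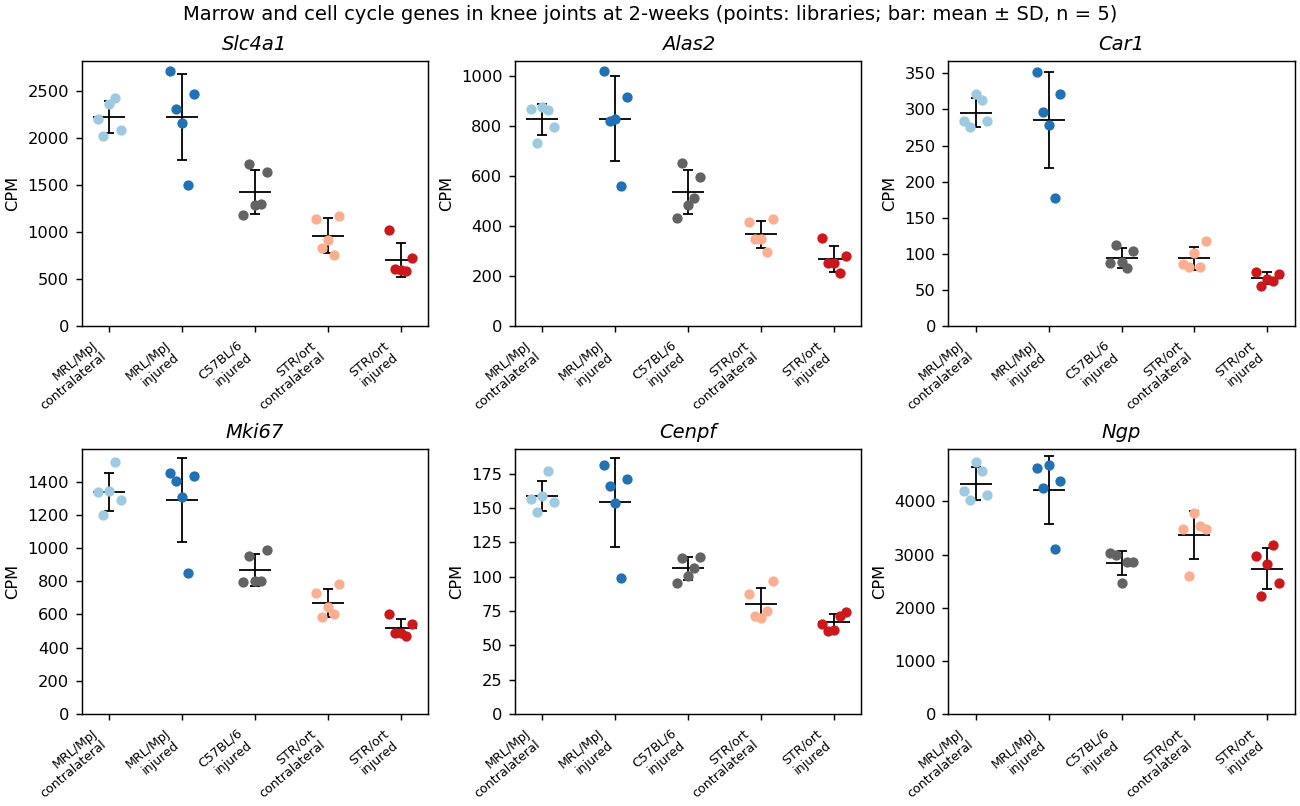
CPM (y axis) of 3 erythroid genes, 2 cell cycle genes and the neutrophil granule gene Ngp in contralateral and injured joints of MRL/MpJ and STR/ort and in injured joints of C57BL/6 at 2-weeks, with 1 point per library and bars for the mean ± SD (n = 5 per group). Injured STR/ort joints lie lowest for Slc4a1, between 584 and 1017 CPM, and the single MRL/MpJ injured point at 1496 CPM is replicate 4.

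The promoters of 3 cell cycle genes and of Alas2 are shown as examples of lists whose called members were all lower in injured STR/ort joints. In the cell cycle promoters capitals mark TTTGAA, the CHR element through which the DREAM complex represses such genes, and CCAAT, the site of NF-Y, and in Alas2 they mark AGATAA, the site of GATA factors, each searched on both strands. CHR matches stood in 10 of 17 cell cycle promoters (58.8%) and in 5878 of 32851 promoters in all (17.9%), and CCAAT in 16 of 17 (94.1%) and in 12289 (37.4%). AGATAA stood in 4 of 11 erythroid promoters (36.4%) and in 3672 of all (11.2%).
Mki67 (chr7:135716330-135716629, minus strand): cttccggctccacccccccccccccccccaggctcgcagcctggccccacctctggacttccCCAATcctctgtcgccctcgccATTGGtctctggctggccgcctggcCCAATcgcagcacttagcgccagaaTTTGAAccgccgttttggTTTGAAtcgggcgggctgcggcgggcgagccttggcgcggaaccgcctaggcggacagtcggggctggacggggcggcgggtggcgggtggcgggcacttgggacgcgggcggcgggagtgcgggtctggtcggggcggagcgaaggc
Cenpf (chr1:189688037-189688336, minus strand): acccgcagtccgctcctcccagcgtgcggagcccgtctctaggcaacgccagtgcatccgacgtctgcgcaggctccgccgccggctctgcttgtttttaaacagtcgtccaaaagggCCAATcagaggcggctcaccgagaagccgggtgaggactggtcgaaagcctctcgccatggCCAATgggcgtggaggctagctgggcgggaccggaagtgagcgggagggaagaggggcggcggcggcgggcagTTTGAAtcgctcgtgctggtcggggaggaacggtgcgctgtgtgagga
Aurka (chr2:172370521-172370820, minus strand): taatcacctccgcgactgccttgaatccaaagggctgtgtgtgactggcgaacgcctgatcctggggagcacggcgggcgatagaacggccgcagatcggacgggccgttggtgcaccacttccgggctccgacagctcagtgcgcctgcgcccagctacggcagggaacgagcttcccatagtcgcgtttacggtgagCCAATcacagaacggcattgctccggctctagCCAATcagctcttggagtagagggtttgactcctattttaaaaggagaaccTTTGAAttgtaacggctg
Alas2 (chrX:150547167-150547466, plus strand): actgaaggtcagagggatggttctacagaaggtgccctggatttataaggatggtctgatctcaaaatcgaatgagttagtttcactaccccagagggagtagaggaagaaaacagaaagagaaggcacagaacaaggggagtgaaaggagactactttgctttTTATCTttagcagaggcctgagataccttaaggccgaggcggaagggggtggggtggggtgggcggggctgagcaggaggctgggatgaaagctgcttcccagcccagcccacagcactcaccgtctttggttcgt

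Lists of other blood cells had mixed counts, some of them near the 11% higher and 7.89% lower over all genes. Of 14 marrow neutrophil genes 2 were lower and none higher (median -0.434), 5 without MRL/MpJ replicate 4, 1 without MRL/MpJ replicate 1 or 3 or STR/ort replicate 2 or 5 and 0 with 2 RUVg factors, Ngp at 2734 ± 385 against 4210 ± 642 CPM and Retnlg at 302 ± 61.1 against 498 ± 104 CPM. Of 20 T cell genes 1 was higher and 5 lower (median -0.186), with 3 lower without STR/ort replicate 2, 6 without MRL/MpJ replicate 4 and 7 without STR/ort replicate 5. The higher call was lost with RLE size factors, 1 RUVg factor, filterByExpr, DESeq2, limma voom, the compared groups only or the replicate block (0 higher and 5 lower), and without MRL/MpJ replicate 3 or 4 or STR/ort replicate 2, 4 or 5. Cd3d, a subunit of the T cell receptor complex, was at 1.16, 0.439, 1.12, 0.990 and 0.706 CPM against 16.6, 13.5, 18.8, 10.3 and 14.3 CPM, 16.3-fold lower, while its partners Cd3e (0.993 ± 0.282 against 1.17 ± 0.536 CPM) and Cd3g (0.647 ± 0.543 against 1.17 ± 0.373 CPM) did not pass the test. Cd3g was called with 1 or 2 RUVg factors, with limma voom and without STR/ort replicate 5. Of 16 B cell and plasma cell genes 8 were higher and 1 lower (median 0.582), with overlap between the strains in all 16, and without MRL/MpJ replicate 4 the count was 3 higher and 1 lower, without STR/ort replicate 5 it was 5 and 1, and with 2 RUVg factors 1 and 0. The heavy chain constant gene Ighg1 was at 9.10 ± 2.60 against 106 ± 49.6 CPM, 11.6-fold lower, in a locus that differs between mouse strains. Of 12 mast cell genes 2 were higher and 1 lower (median 0.0181), 1 and 1 without MRL/MpJ replicate 1 or 5 or STR/ort replicate 4 or 5, and 2 and 2 without MRL/MpJ replicate 4.

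Muscle genes varied widely between libraries. Of 17 fast muscle genes 1 was lower, Ryr1, the calcium release channel (2188 ± 328 against 3872 ± 1125 CPM), the list median was 0.0306, and 2 were lower without STR/ort replicate 3. Of 11 slow muscle genes 6 were higher (median 0.844), with overlap between the strains in all 11, 8 higher without MRL/MpJ replicate 4, 3 without MRL/MpJ replicate 2, 3 or 5, 1 without STR/ort replicate 3 or with 2 RUVg factors and 2 in the compared groups only, as for Myh7, the slow myosin heavy chain, at 83.7 to 537 CPM against 21.4 to 191 CPM, which was not called without MRL/MpJ replicate 1, 2, 3 or 5 or STR/ort replicate 3. Of 17 muscle regeneration and denervation genes 8 were higher and 1 lower (median 0.324). Myh8, the neonatal myosin, was at 43.0, 49.7, 62.3, 33.6 and 34.1 CPM against 4.98, 4.86, 4.12, 9.51 and 5.08 CPM, 7.79-fold higher, and contralateral STR/ort joints were at 49.0 ± 10.97 CPM against 5.78 ± 0.361 CPM.

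The lists of fat, vessels, nerve, early response and control genes follow, beside 11% higher and 7.89% lower over all genes. Of 15 fat genes 3 were higher (median 0.0662), with 1 lower without MRL/MpJ replicate 1, 2 or 5 or STR/ort replicate 3 or 4, among them Lep, the leptin gene, at 19.4 ± 4.55 against 4.79 ± 0.828 CPM, and of 12 endothelial genes 1, Emcn, was higher (median 0.241). Of 11 Schwann cell and nerve injury genes 3 were higher and 2 lower (median 0.256, and 1 and 2 without MRL/MpJ replicate 3), among the lower ones Gfap at 3.13 ± 1.63 against 13.0 ± 2.69 CPM. Of 20 immediate early genes 9 were higher and none lower (median 0.542), 7 of them without MRL/MpJ replicate 4, and of 11 heat shock genes 1 was higher (median 0.238), and 3 without STR/ort replicate 4. None of the 4 skin genes and none of the 25 housekeeping genes the study used (median -0.0407) was called, though 1 housekeeping gene was without STR/ort replicate 1 or 2 and 1 skin gene was higher without MRL/MpJ replicate 2 or STR/ort replicate 4 or 5, when scaled to the housekeeping genes or with 1 RUVg factor, and 1 was lower with limma voom. Of 5 genes that differ between females and males 1, the Y-linked Eif2s3y, was lower, at 44.0, 62.0, 41.7, 37.2 and 61.3 CPM in STR/ort against 77.9, 76.0, 71.9, 72.5 and 74.6 CPM. It lay close to the fold limit and was not called when scaled to the housekeeping genes, with 1 RUVg factor, or without MRL/MpJ replicate 1 or 2 or STR/ort replicate 1, 3 or 4. The contralateral joints of the same STR/ort mice were at 42.2, 68.3, 43.4, 34.1 and 66.0 CPM, so each mouse kept its level in both knees.

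For the genes called between STR/ort and MRL/MpJ, the mean of the injured C57BL/6 joints mostly lay between the other 2. These genes were picked for a gap between the same 2 strains, which makes a place between them likely. The share over all genes was not counted, and an order by susceptibility was not tested. Of the 1897 genes higher in STR/ort, the C57BL/6 mean lay between both strains in 1473 (77.6%), above both in 248 and below both in 176. Of the 1366 lower genes it lay between them in 1068 (78.2%). It lay between them for 19 of 20 collagens, 17 of 19 wound genes, 8 of 8 metalloproteinases and 18 of 18 cell cycle genes. For the interferon-stimulated genes it lay above both in 7 of 8, and for the B cell genes in 7 of 8.

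The same strain comparison was made in injured joints at 1-day and 1-week, which came from other mice and from batch 1, so time and batch cannot be told apart. At 1-day 3506 genes (20.3%) differed and at 1-week 5101 (29.5%). Of the 1897 genes higher at 2-weeks, 1072 (56.5%) were also higher at 1-day and 1482 (78.1%) at 1-week, and of the 1366 lower ones 686 (50.2%) and 988 (72.3%). Opposite calls were few, 17 and 5 at 1-day and 19 and 2 at 1-week. In all 4 comparisons, contralateral joints included, 662 genes were higher and 515 lower. The median of the collagens was 0.884 at 1-day, 1.774 at 1-week and 1.43 at 2-weeks, with 14, 20 and 20 of 20 genes higher. The wound genes followed the same order (0.760, 1.395 and 0.998), whereas the cell cycle genes were at -0.237, -0.663 and -0.816 and the erythroid genes at -1.049, -1.291 and -1.54.

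The difference itself changed from 1-week to 2-weeks in 1347 genes (7.78%), 926 of them (5.35% of all genes) toward STR/ort and 421 (2.43%) away from it. The share toward STR/ort was thus 68.7%. It depended on the scaling, at 94.5% of 2118 genes when scaled to the housekeeping genes, 57% with RLE size factors, 57.6% with DESeq2, and 53.3% and 56.2% with 1 and 2 RUVg factors. From 1-day to 2-weeks it changed in 1497 genes (8.65%), 1081 (6.24%) toward STR/ort and 416 (2.4%) away from it, but in 253 with 1 RUVg factor. All 17 fast muscle genes were among the genes that changed from either time. They were lower in STR/ort at 1-day (median -1.15) and at 1-week (median -1.51), whereas at 2-weeks only Ryr1 was, and the median change was 1.145 from 1-day and 1.445 from 1-week. Inhba fell from a strain difference of 1.75 at 1-week to 0.95, a change of -0.83 ± 0.23 (adjusted p = 0.00645), and Mmp13 from 1.13 to 0.36, a change of -0.79 ± 0.23 (adjusted p = 0.0116). The long non-coding RNA gene BC018473 reversed, from -2.09 ± 0.31 at 1-week to 3.67 ± 0.17 at 2-weeks. Its levels at 2-weeks were 12.8, 18.9, 14.7, 22.6 and 16.4 CPM in STR/ort and 1.21, 1.47, 1.12, 1.37 and 1.51 CPM in MRL/MpJ.

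**Figure D5:**
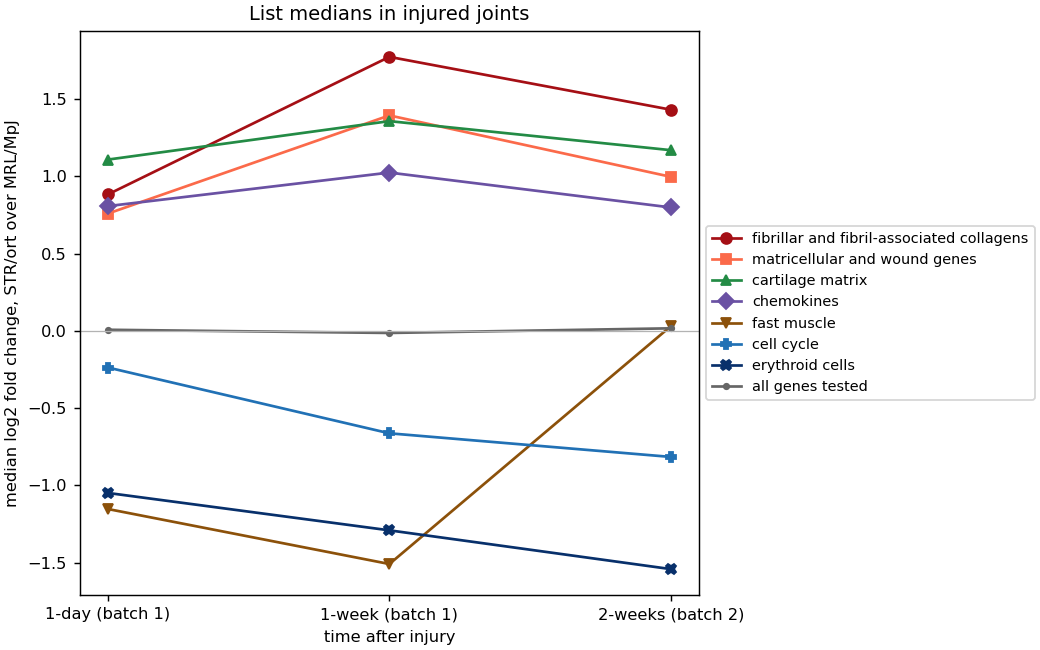
Median log2 fold change of STR/ort over MRL/MpJ in injured joints (y axis) for 7 gene lists and for all genes tested, at 1-day and 1-week (batch 1) and 2-weeks (batch 2) after injury (x axis), 5 libraries per strain and time. The fast muscle list moves from -1.51 at 1-week to 0.0306 at 2-weeks, while the collagens stay above 0.88 at all 3 times.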

How the data were processed

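Whole knee joints were sequenced as poly(A) libraries. Per the labels and the study's methods, the authors aligned reads to mm10 with TopHat2 2.0.11 and deposited whole-number counts per RefSeq gene from featureCounts; the strand setting is not given in the sources used here. Of 17313 rows listed, 3 repeated rows were dropped, 24 carry spreadsheet dates for names and are not named, and 17310 genes were tested. Every gene had 2 or more counts in 5 or more libraries, so this filter removed 0 genes. The injured libraries at 2-weeks held 10658864 to 14998354 counts, and intervals and floors of 3 counts cover counting error only.

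Counts were fitted in edgeR 4.0.16 (R 4.3.3, limma 3.58.1) with TMM factors and the quasi-likelihood test, 1 mean per strain, joint and time, using the 30 libraries of 2-weeks, 30 of 1-day, 28 of 1-week and, for changes between times, all 100. P-values were adjusted by Benjamini-Hochberg over all genes, and a gene was called at an adjusted p below 0.05 and a fold change above 1.5. Means are given ± SD (n = 5), log2 differences ± SE. CPM values use TMM factors and are not divided by gene length, so they are compared within a gene only. For a single value the smallest exact 5 against 5 permutation p is 0.00794.

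Replicate numbers pair the 2 joints of 1 mouse at 2-weeks by the animal numbers in the labels. The correlation of their deviations from the group means had a median of 0.139 over all strains, ran from 0.139 to 0.262 in STR/ort and from -0.161 to 0.0755 in MRL/MpJ, 3 of 5 of them negative, and was compared with a median of 0.0548 for equal numbers in different strains, which are different mice. On simulated counts, 91.5% of 200 genes changed 2-fold were called in the injured comparison and 82% in the interaction. The 200 were drawn from genes with a mean above 1 CPM and the libraries were simulated independently. Genes at lower levels, the pairing by mouse and single odd libraries are therefore not covered.

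The members and gene lists were chosen with earlier results of these data known. Genes were named by rank among those called in the injured comparison at 2-weeks. In each direction these were the 8 smallest adjusted p and the 5 largest fold changes among genes with a mean of at least 1 CPM. The 5 largest CPM differences and the 6 smallest interaction p among called interactions were added. Up to 4 called members of each list were named as well. One gene so ranked is not reported here. Acta2, Adamts3, Adamts5, C4a, Cbln1, Ccl7, Ccl12, Cd3e, Cd3g, Cd68, Chl1, Col5a2, Ctsk, Hif1a, Htra4, Il1b, Inhba, Klf1, Lox, Myh7, Plod2, Prg4, Socs3, Sost, Spon1, Tgfb1, Tgfb2, Tgfb3, Thbs1, Tnf and Vcam1 were chosen after their values were seen, and Mmp3, Mmp13, Il6, Ccl2, Cxcl1 and Sfrp1 because the study names them. Positions and promoters are from RefSeq on GRCm38.p6, in which 17221 genes were matched by symbol or synonym. Alternatives were RLE size factors, scaling to the housekeeping genes, RUVg with 1 or 2 factors, filterByExpr, no filter, DESeq2 1.42.0, limma voom, fits to the compared groups only, a replicate block and each library left out.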

Additional observations from a re-analysis of the deposited data

Results flagged for a closer look

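The strain difference differed between injured and contralateral joints in 78 genes by the interaction test. Among the genes described above, those with a strain difference called further toward STR/ort in injured joints were Chl1 (2.13), Tnfaip6 (1.97), Kcnj15 (1.75), Cthrc1 (1.25), Smoc1 (1.19), Timp1 (1.17), Enpp1 (1.11), Col8a1 (1.06), Sfrp1 (1.06), Inhba (1.03) and Spon1 (1.01), all on the log2 scale. Smaller interactions were called for Mmp19 (0.98), Socs3 (0.97), Spsb1 (0.96), Scx (0.94), Lox (0.91), Plod2 (0.88), Pmepa1 (0.84), Adamts3 (0.83), Thbs2 (0.77), Col5a2 (0.72), Hif1a (0.66) and Mmp14 (0.61). The 3 interactions with a negative sign were those of Serpina1b (-1.52), Cbln1 (-1.36) and Htra4 (-1.19).

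The strain difference in injured joints differed between 2-weeks and 1-week in 1347 genes and between 2-weeks and 1-day in 1497, times that lie in separate batches. It differed by 5.74 for BC018473, by -0.83 for Inhba and by -0.79 for Mmp13 from 1-week to 2-weeks.

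Single libraries far from the other 4 of their group were found in 31 of 219 groups of 5 among the 110 genes. Chance gives about 1 in 20 for normal values. The genes share the same libraries and are not independent, so the 31 are not separate events. MRL/MpJ injured replicate 4 was the lowest of its group for Mki67 (850.8 CPM), Aurka (41.25 CPM), Klf1 (50.76 CPM), Ngp (3106 CPM), Mmp9 (501.3 CPM), Alpl (48.02 CPM) and H2-Ea-ps (25.88 CPM). It was the highest for Ryr1 (5816 CPM), Myh8 (9.513 CPM), Tgfb3 (68.72 CPM) and Tgfb2 (32.95 CPM). MRL/MpJ injured replicate 3 was the lowest for Fn1 (1427 CPM), Bgn (259.1 CPM), Postn (221.0 CPM), Mmp2 (132.2 CPM), Enpp1 (20.45 CPM), Capg (12.03 CPM), Mmp19 (10.22 CPM), Sfrp1 (9.108 CPM) and Socs3 (7.476 CPM).

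Among the STR/ort injured joints, replicate 5 was the highest for Tnfaip6 (90.49 CPM), Inhba (54.24 CPM), Socs3 (36.34 CPM), Ccl2 (8.732 CPM), Cxcl1 (3.44 CPM) and Il6 (2.381 CPM). Replicate 3 was the lowest for Fn1 (4841 CPM), Ctsk (234.4 CPM) and Htra4 (20.75 CPM) and the highest for Myh7 (537.1 CPM), and replicate 4 was the highest for C4a (1.17 CPM).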

How the results depend on the processing

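The 3263 genes of the injured comparison at 2-weeks numbered 2935 with filterByExpr, 3189 with DESeq2, 3257 with limma voom, 3397 when scaled to the housekeeping genes, 3404 with 1 RUVg factor, 2736 with 2 (2308 shared) and 3264 with a replicate block by number, and leaving out 1 library gave 3099 to 3518. The contralateral comparison had 1912 genes with 2 RUVg factors (1478 shared), 2386 with that block and 2211 to 2400 with 1 library left out. The interaction was the least settled: 49 genes with RLE size factors, 149 with 2 RUVg factors, 37 with filterByExpr, 36 in the compared groups only and 79 with the mouse as a block (63 of the 78 shared), and 21 to 150 with 1 library left out. Among the 26 called interactions of named genes, the mouse block removed only those of Col5a2 and Cbln1. Calls that other named genes gained with it were not looked for. At 1-day the count was 2254 with 1 RUVg factor and at 1-week 3361 with 2, with ranges of 3261 to 3655 and 4767 to 5218 on leaving out 1 library; scaled to the housekeeping genes, 29.0% and 37.0% of the calls were higher, against 50.3% and 50.9%. The 2-weeks to 1-week change was called in 2118 genes when scaled to the housekeeping genes (1123 to 1650 on leaving out 1 library), and the 2-weeks to 1-day change in 2798, in 253 with 1 RUVg factor and in 327 with 2 (1121 to 2217). The strain explains 65.7% of the second RUVg factor at 2-weeks. Fold changes near 0 changed sign: Tgfb1 was at -0.0158 with RLE size factors and DESeq2, -0.0374 with 1 RUVg factor, -0.0235 with filterByExpr, -0.0071 in the compared groups only, and -0.1089 to 0.0408 with 1 library left out. Thbs1 was at -0.0126 with 1 RUVg factor, -0.0041 with filterByExpr and -0.0756 to 0.0581 with 1 library left out. Leaving out 1 library gave -0.1945 to 0.0511 for Sfn and -0.3907 to 0.0139 for Cd3e. Mmp9, Ngp, Vcam1 and Eif2s3y lay close to the fold limit and dropped under it, to between -0.5834 and -0.507, without single libraries: MRL/MpJ replicate 1 for all 4, replicate 2 for Mmp9, Vcam1 and Eif2s3y, replicate 3 for Ngp, replicate 5 for Mmp9 and Vcam1; STR/ort replicate 1 for Vcam1 and Eif2s3y, 2 for Mmp9 and Ngp, 3 for Mmp9 and Eif2s3y, 4 for Eif2s3y and 5 for Mmp9 and Ngp. When scaled to the housekeeping genes these 4 lay between -0.5327 and -0.5026, with 2 RUVg factors Mmp9 was at -0.4159 and Ngp at -0.4314, with limma voom Mmp9 was at -0.5726, and with 1 RUVg factor Eif2s3y was at -0.5831, none of them called. Emcn and Retnlg were not called with 2 RUVg factors. Myh7 was not called with 2 RUVg factors (adjusted p = 0.847), in the compared groups only, or without MRL/MpJ replicate 1, 2, 3 or 5 or STR/ort replicate 3 (adjusted p 0.0557 to 0.234). Cd3g was called without STR/ort replicate 5 (adjusted p = 0.0142), with 1 or 2 RUVg factors (0.00713 and 0.0222) and with limma voom (0.0495). Cbln1 was called without STR/ort replicate 5 (0.0317), and Spon1 with 2 RUVg factors (0.00102). Of the 26 interactions, 5 were lost with RLE size factors, 9 with filterByExpr, 8 in the compared groups only, 2 each with limma voom and housekeeping scaling and 1 with DESeq2. That of Tnfaip6 had an adjusted p of 0.0707 with RLE size factors, 0.079 with filterByExpr, 0.0849 with limma voom and 0.109 in the compared groups only. The cause of these changes was not tested. Depth sets the counting error of genes at a few counts per library, and whether it decides any call was not tested.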
